A study of Homo sapiens with 12 samples.

Results

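The control cells of 2 enzalutamide-resistant prostate cancer lines were compared with each other, C4-2B-EnzR against LNCaP-EnzR. They were chosen by their labels, as the libraries of cells infected with the control shRNA vector (LKO), and make up 6 of the 12 libraries of the series, 3 in each line. The other 6 libraries carry a hairpin against CXCR7 and were not used here. The study had grown both lines under enzalutamide and used RNA-Seq to follow the loss of CXCR7. Its paper describes the C4-2B-EnzR RNA-Seq as duplicate, whereas all 3 control libraries of that line in the series were used here. All 6 control libraries were taken from cells 4 days after infection with the pLKO lentivirus. LNCaP-EnzR cells, labelled LNCaP MDVr P23, were kept in 2 µM enzalutamide, and C4-2B-EnzR cells, labelled C4-2B MDVr P15, in 10 µM. Line, drug dose and the P number differed together, so their parts in any difference below cannot be told apart. Both groups are cultured cell lines, and the labels do not say whether the replicates of a line were grown apart, so the p-values speak of the spread among these libraries, which could be technical.

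LNCaP is a human line grown from a lymph node metastasis of prostate cancer, and C4-2B is its descendant, taken from a bone metastasis that a castration-resistant LNCaP subline formed in mice. Both respond to androgen, the steroid hormone that keeps secretory genes of the luminal prostate cell, such as the kallikreins, switched on. Enzalutamide is a drug that blocks androgen signalling. CXCR7, encoded by ACKR3, is a chemokine receptor that signals through β-arrestins rather than through G proteins. A comparison of the control cells gives the state in which each line met the CXCR7 hairpin.

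Each library had 6.35 to 9.79 M reads in genes, computed back from the deposited RPKM (reads per kilobase of gene and M reads), which were 66.7 to 75.2% of the reads the authors divided by. The 6 columns were rescaled by factors between 0.949 and 1.07, so that the median gene was at the same level in each, and levels below are rescaled RPKM. Log2 levels correlated at 0.976 to 0.985 between libraries of a line and at 0.870 to 0.876 between lines. The first principal component held 81.9% of the variance and separated the lines, while the second, with 5.66%, spread the C4-2B-EnzR libraries, at 27.4, -5.42 and -22.0. The lines were therefore set apart by far more than the replicates, but the C4-2B-EnzR replicates differed among themselves more than the LNCaP-EnzR replicates did, with pairwise chi-square values of 3.71 to 14.2 per degree of freedom against 1.79 to 2.27.

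Of 26443 genes, 13379 reached 0.5 RPKM in 3 or more of the 6 libraries and were tested with limma on log2(RPKM + 0.25). A difference is always C4-2B-EnzR minus LNCaP-EnzR on this log2 scale, which understates the difference of genes with little RNA, and an adjusted p is Benjamini-Hochberg adjusted over the 13379 genes. A gene was called at a 2-fold difference or more and an adjusted p under 0.001. By that limit 1232 genes (9.21%) were higher and 944 genes (7.06%) were lower in C4-2B-EnzR. Counts of list members called, given below, are to be read beside these shares. At an adjusted p under 0.05 with no limit on size, 4384 genes (32.8%) were higher and 4286 (32.0%) lower, and the libraries of the lines did not overlap for 4708 genes (35.2%) in the higher and 4680 (35.0%) in the lower direction. Most differences were small, and 59.3% of the genes tested lay within 1.5-fold. At the other end, 390 of the genes called higher and 201 of those called lower differed by 4-fold or more. Some differences were built in by the limit on low levels, since 447 genes passed it only through C4-2B-EnzR and 292 only through LNCaP-EnzR, and 337 and 181 of them were called. For such genes the direction was fixed by the limit, so their differences are given as descriptions, and each list below is also given without them where that changes its picture.

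**Figure D1:**
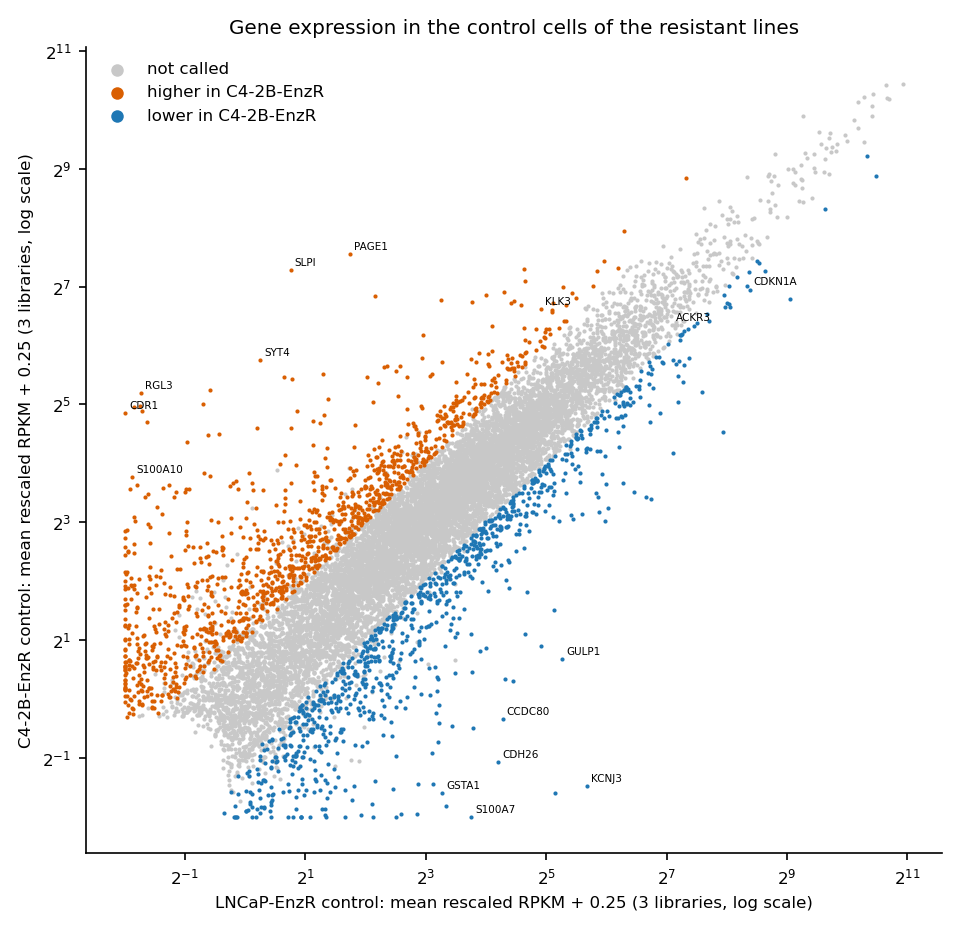
Each point is a tested gene, at its mean rescaled RPKM + 0.25 over the 3 control libraries of LNCaP-EnzR (x axis) and of C4-2B-EnzR (y axis), both on log scales. Orange points were called higher (1232 genes in all) and blue points lower (944) in C4-2B-EnzR, and some of the genes with the largest differences are named. XIST and genes of the Y chromosome are not drawn.

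Most of the largest differences were those of genes near silence in 1 line, with PAGE1, SLPI and GULP1, at 1 RPKM or more in each library, among the exceptions. Small RNAs, LOC symbols, XIST and genes of the Y chromosome were left out of this ranking. Among the genes highest in C4-2B-EnzR over LNCaP-EnzR were RGL3 (a guanine nucleotide exchange factor for Ral), PREX1 (an exchange factor for Rac), P2RY14 (a receptor for UDP-sugars), NR2F1 (the orphan nuclear receptor COUP-TFI) and the lactate exporter SLC16A3. PREX1 was at 0.0167, 0.0436 and 0.101 RPKM in the LNCaP-EnzR libraries, from 1, 4 and 7 reads, and at 30.8, 28.2 and 29.3 RPKM in C4-2B-EnzR. NR2F1 (chr5:93583222-93594611 in GRCh38, GENCODE 44) was at 0.0593, 0.0776 and 0.0769 RPKM in LNCaP-EnzR and at 26.0, 25.8 and 25.9 in C4-2B-EnzR, a fitted difference of 6.35 ± 0.095 (SE, n = 3 per line). The spread within a line was a small part of these differences, and no library of one line came near those of the other.

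In the other direction, KCNJ3, which encodes the potassium channel subunit GIRK1, was at 49.6, 50.9 and 52.1 RPKM in LNCaP-EnzR and at 0.225, 0.0404 and 0.0619 RPKM in C4-2B-EnzR. TFPI, the inhibitor of the tissue factor pathway of coagulation, was at 37.8, 32.6 and 35.7 RPKM against 0.114, 0.0238 and 0.110. The kinase gene PAK1, an effector of Rac and CDC42, was at 7.88, 9.08 and 8.54 RPKM against 0.113, 0.113 and 0.130. These genes were thus near silent in C4-2B-EnzR and had passed the limit through LNCaP-EnzR alone, as NR2F1 and PREX1 had through C4-2B-EnzR, and the fitted differences were -7.19 ± 0.18 for KCNJ3, -6.75 ± 0.14 for TFPI and -4.57 ± 0.12 for PAK1. CDH26, GSTA1, FCAMR, CCDC80, GULP1, HEPACAM, PCDHB5 and PGM5 had differences between -5.27 and -4.28. Of these, CDH26, GSTA1, FCAMR, HEPACAM and PCDHB5 passed the limit through LNCaP-EnzR alone, as RGL3 and P2RY14 had through C4-2B-EnzR alone.

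Both lines carried the markers of luminal prostate cells. KLK3, KLK2, HOXB13, FOLH1, TMPRSS2, KRT8 and KRT18 were each above 8 RPKM in all 6 libraries. The defining markers of other cells were mostly at or near 0. The basal cell genes TP63, KRT5, KRT14 and KRT17 stayed at or under 0.0607 RPKM and KRT15 was listed at 0 in all 6 libraries, although 4 of 18 basal list members passed the limit on low levels and 2 of them, the integrin genes ITGA6 and ITGB4, were called higher. Of the fibroblast genes, COL1A2, PDGFRA, FAP and POSTN were listed at 0 in all 6 libraries and COL1A1 alone passed the limit. Among blood cell genes, CD3D, CD3E and MS4A1 were listed at 0 and PTPRC stayed at or under 0.0467 RPKM. The summed level of the blood list ran from 5.91 to 7.12 RPKM in LNCaP-EnzR and from 7.28 to 10.6 in C4-2B-EnzR, mostly CD68. Embryonic kidney genes summed to 18.2 to 20.7 and 27.9 to 35.4 RPKM, mostly TBX1, with PAX2 and PAX8 at or under 0.143. All 4 tested members of that list were higher at an adjusted p under 0.05, among them WT1, listed at 0 in LNCaP-EnzR and at 0.900, 1.10 and 0.981 RPKM in C4-2B-EnzR, and SIX2, at 0.0513, 0.168 and 0.0443 against 0.947, 0.595 and 0.877, both through C4-2B-EnzR alone. The part of these markers in the differences was not tested.

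The kallikreins KLK2, KLK3 and KLK15, secretory genes that androgen switches on, were higher in C4-2B-EnzR. KLK3, which encodes the serum marker PSA (chr19:50854915-50860764), was at 28.1, 29.5 and 31.7 RPKM against 108, 96.9 and 89.9. Every C4-2B-EnzR library was above every LNCaP-EnzR library for KLK3, and the difference was 1.71 ± 0.084 (adjusted p = 2.43e-06). The related kallikrein KLK2 differed by 1.17 ± 0.087. Of 32 androgen-responsive genes tested, 8 were called higher and 3 lower (18 and 7 at an adjusted p under 0.05), with a median difference of 0.40 against -0.00026 over all genes tested. SLC43A1, an amino acid transporter, gave the largest of these differences (2.63 ± 0.079), followed by the cation channel TRPM8, KLK3 and KLK15. TRPM8 passed the limit on low levels through C4-2B-EnzR alone.

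Not all androgen-responsive genes followed, and HERC3 and C1orf116 were among the members called lower. TMPRSS2, the serine protease gene, was higher by 0.62 ± 0.11 (adjusted p = 0.0015) and HOXB13, a homeobox gene of the prostate lineage, by 0.55 ± 0.084 (adjusted p = 0.000684), both short of the 2-fold limit. FOLH1, which encodes the antigen PSMA, was at 257, 231 and 238 RPKM against 312, 304 and 273, and its difference of 0.29 ± 0.077 (adjusted p = 0.0108) had an adjusted p of 0.0545 without LNCaP-EnzR replicate 2. The keratins of luminal cells, KRT8 and KRT18, differed by -0.62 and -0.53.

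Among transcription factors of androgen signalling and of luminal cells, 4 of 21 were called higher and 1 lower, with a median difference of 0.24. The members called higher were the coactivator NCOA1 and the nuclear receptors NR2F1, NR2F2 and NR3C1. NR3C1 encodes the glucocorticoid receptor, a steroid hormone receptor. It was at 0.0234, 0.0535 and 0.0707 RPKM in LNCaP-EnzR and at 0.930, 1.59 and 1.85 in C4-2B-EnzR, a low level that passed the limit through C4-2B-EnzR alone. NR2F2 was at 4.70, 4.57 and 4.74 RPKM against 16.2, 15.4 and 16.9, and so was present in both lines, unlike NR2F1, which was near 0 in LNCaP-EnzR.

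Enzymes that inactivate androgens were lower in C4-2B-EnzR. UGT2B15 and UGT2B17 join glucuronic acid to testosterone and dihydrotestosterone metabolites, which inactivates them. UGT2B17 (chr4:68537173-68576413) was at 68.1, 60.1 and 59.1 RPKM in LNCaP-EnzR and at 7.44, 7.30 and 8.95 in C4-2B-EnzR, a difference of -2.95 ± 0.098. UGT2B15 was at 48.6, 43.0 and 38.9 RPKM against 7.31, 8.62 and 8.13, a difference of -2.40 ± 0.10. The UGT2B genes are near-identical copies among which reads may have been split, so the family was also summed. The 7 UGT2B genes together came to 158, 137 and 114 RPKM in LNCaP-EnzR and to 18.7 ± 0.29 (SD, n = 3) in C4-2B-EnzR, 7.29-fold less. UGT2B11 varied between replicates, at 33.6, 27.5 and 13.0 RPKM against 2.90, 1.96 and 0.841, and its adjusted p of 0.000233 became 0.00133, 0.00144 and 0.00159 without LNCaP-EnzR replicate 1, LNCaP-EnzR replicate 2 or C4-2B-EnzR replicate 2. Of 17 genes of steroid metabolism tested, 1 was called higher and 5 lower, and the median difference was -0.81. HSD17B11, a hydroxysteroid dehydrogenase of the same chromosome 4, was the member called higher, with 1.52, 1.80 and 2.18 RPKM against 7.94, 10.1 and 8.73.

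Proliferation genes were higher in C4-2B-EnzR. Of 54 genes of the G2/M phase, 32 were called higher and 1, CBX5, lower, with a median difference of 1.27, and 51 were higher at an adjusted p under 0.05. Of 43 S phase genes, 14 were called higher and none lower, with a median of 0.76. MKI67, the proliferation marker Ki-67, was at 2.33, 2.06 and 2.16 RPKM in LNCaP-EnzR and at 9.96, 12.2 and 13.9 in C4-2B-EnzR, a difference of 2.32 ± 0.13. GTSE1, ECT2 and KIF23, which act in mitosis and cytokinesis, and CDC45, a part of the replicative helicase, differed by 1.89 to 2.24. BRCA2, which repairs DNA breaks, was at 0.534, 0.368 and 0.394 RPKM against 3.12, 4.33 and 4.60, and the chromatin genes EZH2 (a histone H3 lysine 27 methyltransferase) and DNMT3B (a DNA methyltransferase) differed by 1.47 ± 0.077 and 1.33 ± 0.13.

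The C4-2B-EnzR libraries were not alike in these genes. The median G2/M gene lay 0.91, 1.31 and 1.62 above the LNCaP-EnzR mean in C4-2B-EnzR replicates 1, 2 and 3, and the median S phase gene 0.51, 0.79 and 1.03, whereas the LNCaP-EnzR libraries lay within 0.04 of their mean. The same libraries stood apart on the second principal component, and its part in these calls was not tested. Without C4-2B-EnzR replicate 2 the calls fell to 13 G2/M and 2 S phase genes, and without LNCaP-EnzR replicates 1, 2 and 3 to 16, 15 and 18 G2/M and 4, 5 and 3 S phase genes. Without C4-2B-EnzR replicate 3 they were 26 and 7, and without replicate 1 they were 42 and 17. The medians over those 6 fits stayed between 1.09 and 1.49 for G2/M and between 0.65 and 0.90 for S phase genes, and 48 to 51 G2/M genes were higher at an adjusted p under 0.05 in each. AURKA, a mitotic kinase, was at 4.34, 5.19 and 4.57 RPKM against 10.7, 12.3 and 18.6. Its adjusted p of 0.000264 rose to 0.00107 to 0.00176 when any LNCaP-EnzR library or C4-2B-EnzR replicate 2 was left out. TACC3, which binds AURKA at the spindle, was at 16.1, 15.1 and 14.6 RPKM against 25.2, 26.9 and 36.3, a difference of 0.92 ± 0.13 (adjusted p = 0.000485).

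**Figure D2:**
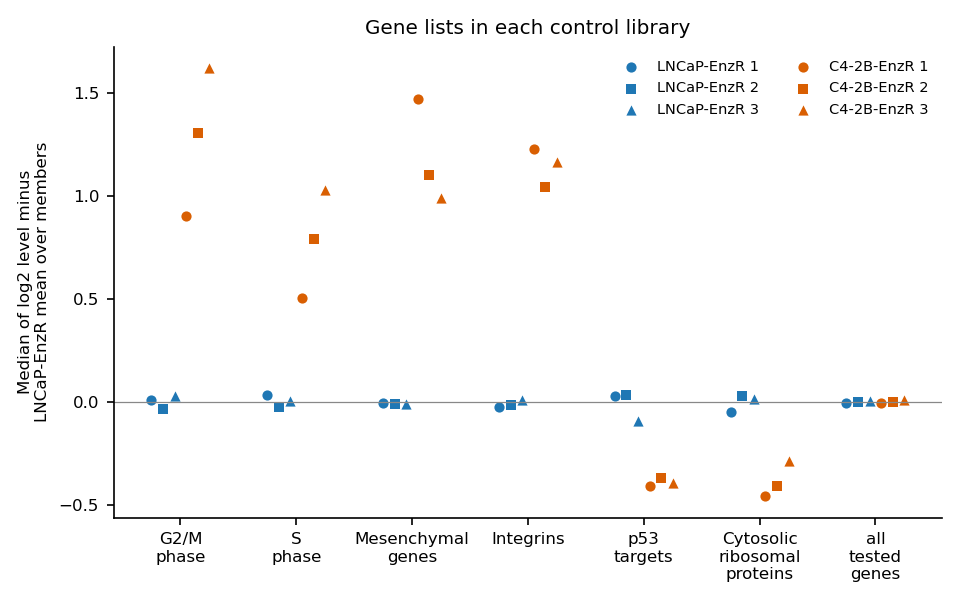
For each control library (points, by line and replicate), the median over the tested members of a gene list of the log2 level minus the LNCaP-EnzR mean. The C4-2B-EnzR libraries lie at 0.91, 1.31 and 1.62 for G2/M genes, at 1.47, 1.11 and 0.99 for mesenchymal genes, and within 0.01 of 0 for all tested genes.

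A pair of genes that hold back the cell cycle were lower, although of 18 cell cycle inhibitors and cyclins tested 1 (CDK2) was called higher and 2 lower, with a median of 0.01. The call of CDK2 was lost without C4-2B-EnzR replicate 2 (adjusted p = 0.00142), LNCaP-EnzR replicate 2 (0.00114) or LNCaP-EnzR replicate 3 (0.00113). CDKN1A, which encodes the inhibitor p21 (chr6:36676460-36687337), was at 345, 371 and 283 RPKM in LNCaP-EnzR and at 143, 125 and 102 in C4-2B-EnzR, a difference of -1.44 ± 0.14 (adjusted p = 7.04e-05). CDKN2A, the locus of p16 and ARF, was at 7.08, 7.06 and 6.02 RPKM against 1.36, 1.57 and 1.75. Of 30 p53 target genes tested, 1 (PLK3) was called higher and 7 lower, with a median of -0.42. PLK2, a polo-like kinase, had the largest of these differences (-3.15 ± 0.15), followed by GDF15, the stress-inducible sestrin SESN1 and the antiproliferative gene BTG2. GDF15, a secreted stress cytokine, was at 571, 608 and 419 RPKM against 150, 113 and 70.3, and its adjusted p of 0.000145 was 0.00113 without C4-2B-EnzR replicate 2 and 0.00108 without LNCaP-EnzR replicate 1.

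Genes of attachment to the matrix were higher in C4-2B-EnzR. Of 18 integrin and focal adhesion genes tested, 10 were called higher and none lower, and the median was 1.17. ITGB1, the shared β1 subunit, was at 27.8, 23.8 and 21.8 RPKM in LNCaP-EnzR and at 79.9, 84.9 and 70.3 in C4-2B-EnzR, a difference of 1.67 ± 0.11. ITGB4, the laminin receptor subunit of hemidesmosomes, was at 0.837, 1.09 and 0.990 RPKM against 13.3, 10.3 and 10.6, a difference of 3.25 ± 0.13. The α subunits ITGA2, ITGA3, ITGA5 and ITGA6 were called higher as well, with ITGA5, the fibronectin receptor chain, at 2.53 ± 0.13. FN1, fibronectin itself, was at 16.8, 16.1 and 14.2 RPKM against 130, 115 and 101.

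Of 21 mesenchymal genes tested, 9 were called higher and 2 lower, with a median of 1.23. Through 1 line alone had passed 6 of those higher and both of those lower, and the other 12 members had a median of 0.49. The members called higher included matrix and contractile genes: the tenascin gene TNC, the thrombospondin gene THBS1, TPM2, MYL9, COL5A1 and the N-cadherin gene CDH2. TNC was at 0.0257, 0.0168 and 0.0444 RPKM in LNCaP-EnzR and at 6.22, 6.15 and 5.52 in C4-2B-EnzR, a difference of 4.48 ± 0.14. INHBA, the activin A subunit, had 1, 0 and 0 reads in LNCaP-EnzR and 349, 254 and 309 in C4-2B-EnzR, at 12.6, 11.5 and 10.7 RPKM. The members called lower were TWIST1, a transcription factor that drives mesenchymal change, and S100A4. TWIST1 was at 1.86, 3.08 and 1.95 RPKM in LNCaP-EnzR and listed at 0 in each C4-2B-EnzR library.

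Epithelial junction genes as a list were not lower alongside. Of 32 tested, 7 were called higher and none lower (18 and 5 at an adjusted p under 0.05), with a median of 0.49. The desmosomal cadherin DSG2 was at 16.5 to 17.2 RPKM against 79.9, 84.6 and 75.6, a difference of 2.22 ± 0.065, and the tight junction genes CGN and TJP1 and the membrane protease gene ST14 differed by 1.93, 1.51 and 1.52. Members of both the mesenchymal and the epithelial lists were therefore higher in the same line.

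The clustered protocadherins, neighbouring cell adhesion genes on chromosome 5 best known from neurons, were lower. The 7 PCDHB genes that passed the limit on low levels did so through LNCaP-EnzR alone, which fixed their direction, and differed by -4.36 to -1.65. PCDHB5 (chr5:141135206-141138615) was at 6.92, 6.83 and 7.48 RPKM in LNCaP-EnzR and at 0.0806, 0.0338 and 0.233 in C4-2B-EnzR. Summed over the 19 PCDHB genes and pseudogenes of the table, the level was 21.3 to 22.7 RPKM against 1.01, 1.07 and 0.977, 21.6-fold less. The sum depends less than single genes do on how reads were split among copies. The 23 PCDHG genes summed to 10.3, 9.43 and 9.19 RPKM against 3.86, 3.66 and 2.84, and the 15 PCDHA genes were under 0.326 in each library. Of 20 cadherin and protocadherin genes tested, 12 were called lower and 6 higher, with a median of -1.46, but 11 of those lower and 3 of those higher had passed the limit through 1 line alone. The 5 members left had 3 called higher, 1 lower and a median of 1.45. The members called higher, CDH2, CDH18, PCDH1, PCDH7, PCDH9 and PCDH20, are none of the clustered genes. PCDH20 had 0, 0 and 1 reads in LNCaP-EnzR and 264, 226 and 233 in C4-2B-EnzR, and PCDH9 had none at all in LNCaP-EnzR.

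**Figure D3:**
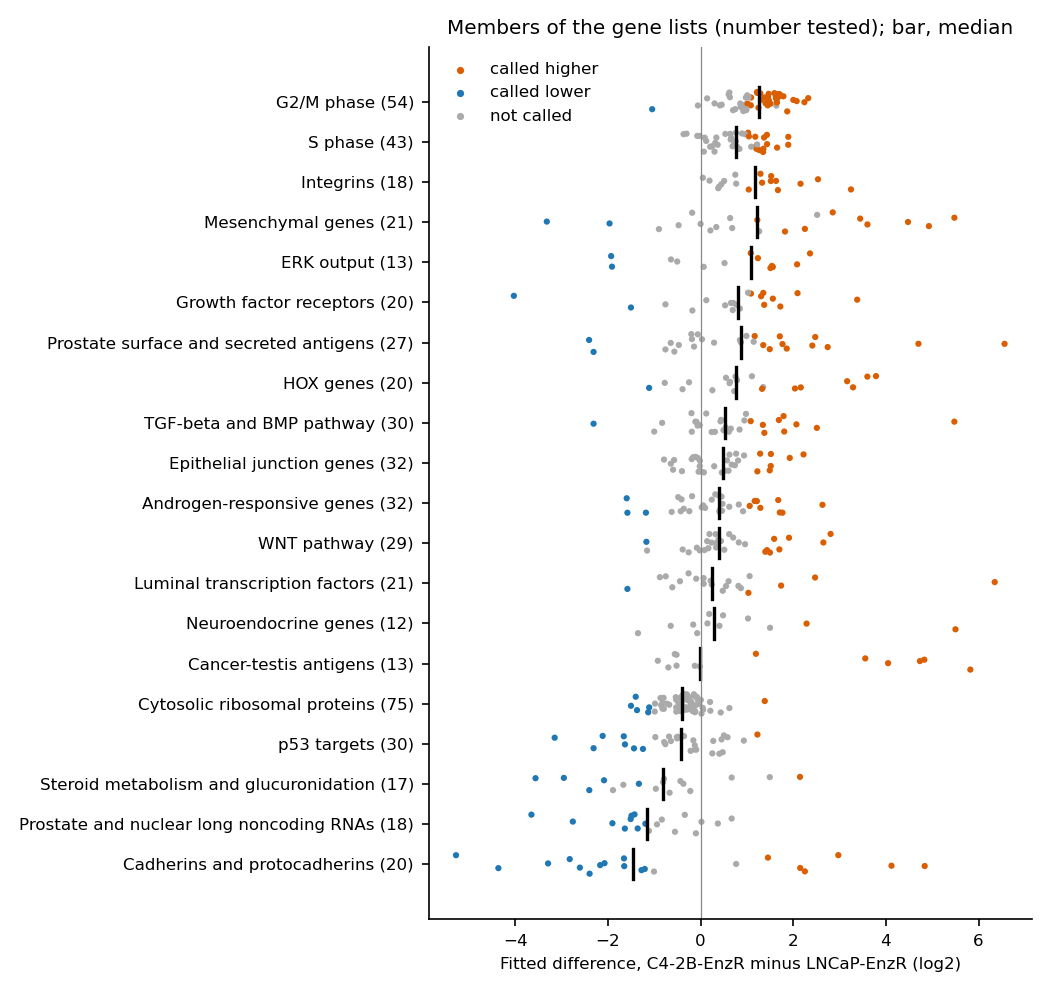
Fitted difference of each tested member of 20 gene lists, C4-2B-EnzR minus LNCaP-EnzR on the log2 scale, with the number tested in parentheses and the median as a black bar. Orange members were called higher, blue lower and grey were not called. The median is 1.27 for G2/M genes, 1.17 for integrins, -0.81 for steroid metabolism and -1.15 for long noncoding RNAs.

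Several growth factor receptor genes were higher. Of 20 tested, 8 were called higher and 2 lower (15 and 3 at an adjusted p under 0.05), with a median of 0.81. MET, the receptor of hepatocyte growth factor, was at 0.116, 0.0650 and 0.0286 RPKM in LNCaP-EnzR and at 2.99, 3.41 and 2.81 in C4-2B-EnzR, a difference of 3.38 ± 0.17. EGFR was at 1.78, 1.52 and 1.18 RPKM against 7.36, 7.73 and 6.31, and ERBB2, its partner, at 41.5, 40.0 and 38.5 against 117, 102 and 90.7. These receptors signal through the RAS and ERK cascade. EPHA3, an ephrin receptor, went the other way by a larger amount, with 32.9, 28.2 and 29.0 RPKM in LNCaP-EnzR and 1.82, 1.70 and 1.32 in C4-2B-EnzR (difference -4.03 ± 0.12). Of 13 genes that read out ERK activity, 7 were called higher and 2 lower, with a median of 1.08. SPRY1, SPRED1 and SPRED2, inhibitors that ERK signalling induces, and the ETS factor ETV4 were among those called higher, whereas the ERK phosphatase DUSP4 differed by -1.93 ± 0.14 and the ETS factor ETV1 was at 0.709, 0.785 and 0.775 RPKM against 0.0308, 0.0129 and 0.00989. MET and ETV4 passed the limit on low levels through C4-2B-EnzR alone and ETV1 through LNCaP-EnzR alone. The call of ETV1 was lost without LNCaP-EnzR replicate 2 (adjusted p = 0.00101).

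ACKR3, the gene that the study's hairpin targets, was at 142, 137 and 130 RPKM in the LNCaP-EnzR controls and at 80.0, 82.7 and 81.8 in the C4-2B-EnzR controls. All C4-2B-EnzR libraries were below all LNCaP-EnzR libraries, with a difference of -0.74 ± 0.06 (adjusted p = 2.79e-05) that stayed short of 2-fold, and the gene was high in both lines. The β-arrestin genes, whose products CXCR7 recruits, differed little: ARRB1 by 0.54 ± 0.075 (adjusted p = 0.000416) and ARRB2 by -0.07 ± 0.071 (adjusted p = 0.397), the latter turning to 0.03 without rescaling. CXCR4, the classical receptor of the shared ligand CXCL12, did not reach the limit on low levels, with means of 0.08 and 0.05 RPKM. Of 14 genes of the CXCR7 axis tested, EGFR and the receptor kinase gene GRK5 were called higher and none lower, with a median of 0.10. That is 14.3% called higher, against 9.21% of all genes tested. The clathrin light chain gene CLTB differed by -0.80 ± 0.067 (adjusted p = 3.17e-05).

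Markers of neuroendocrine cells, a lineage that prostate cancer can take on under treatment, were mostly near 0 in both lines. CHGA and CHGB stayed under the limit on low levels, with mean levels of 0.01 to 0.05 RPKM. SYP was at 0.636, 0.802 and 0.393 RPKM in LNCaP-EnzR and at 0.581, 0.446 and 0.497 in C4-2B-EnzR, with ranges that overlap (difference -0.16 ± 0.22, adjusted p = 0.561). ENO2, the neuronal enolase, was at 13.5, 13.7 and 16.4 RPKM against 19.9, 18.3 and 19.8 (difference 0.41 ± 0.092, adjusted p = 0.00503). Of 36 list members only 12 were tested, of which 2 were called higher (16.7%, against 9.21% of all genes tested) and none lower. SYT4, a synaptotagmin of dense-core vesicles, stood out among them at 0.972, 0.847 and 1.00 RPKM against 50.7, 58.4 and 51.9, a difference of 5.50 ± 0.092. NTS, the peptide neurotensin, was the other, at 1.07, 0.758 and 2.31 RPKM against 6.84, 6.77 and 7.75, and its adjusted p of 0.000321 became 0.00117 to 0.00218 when any C4-2B-EnzR library or LNCaP-EnzR replicate 1 was left out.

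Of 27 secreted and surface antigens, 11 were called higher and 2 lower (16 and 6 at an adjusted p under 0.05), with a median of 0.87. The 23 that had not passed through 1 line alone had a median of 0.29, and the summed level of the list was 1393 to 1587 RPKM in LNCaP-EnzR and 1210 to 1422 in C4-2B-EnzR. SLPI, a secreted inhibitor of leukocyte proteases (chr20:45252239-45254564), was at 1.30, 1.09 and 1.92 RPKM in LNCaP-EnzR and at 147, 150 and 171 in C4-2B-EnzR, a difference of 6.56 ± 0.17. The prostatic acid phosphatase gene ACPP was at 2.95, 3.12 and 3.63 RPKM against 18.3, 20.3 and 18.7, and the choline transporter gene SLC44A4 at 0.0979, 0.136 and 0.109 against 10.6, 9.13 and 8.07. SLC44A4 passed the limit on low levels through C4-2B-EnzR alone. SLPI and ACPP are products of secretory epithelium, as the kallikreins are. SPON2, a matrix protein, and GDF15 were the members called lower. Cancer-testis antigens, normally restricted to germ cells, divided: of 13 tested, 6 were called higher, 7 were not called and the median was -0.02. At an adjusted p under 0.05, 6 were higher and 5 lower. PAGE1, on the X chromosome, was at 2.83, 3.27 and 3.16 RPKM against 176, 187 and 202, and MAGEA1 at 1.10, 1.31 and 1.51 against 41.0, 44.8 and 45.4. The 15 MAGEA genes of the table, which are near-identical in parts, summed to 105, 112 and 113 RPKM against 135, 153 and 147, so the family as a whole differed far less than MAGEA1.

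**Figure D4:**
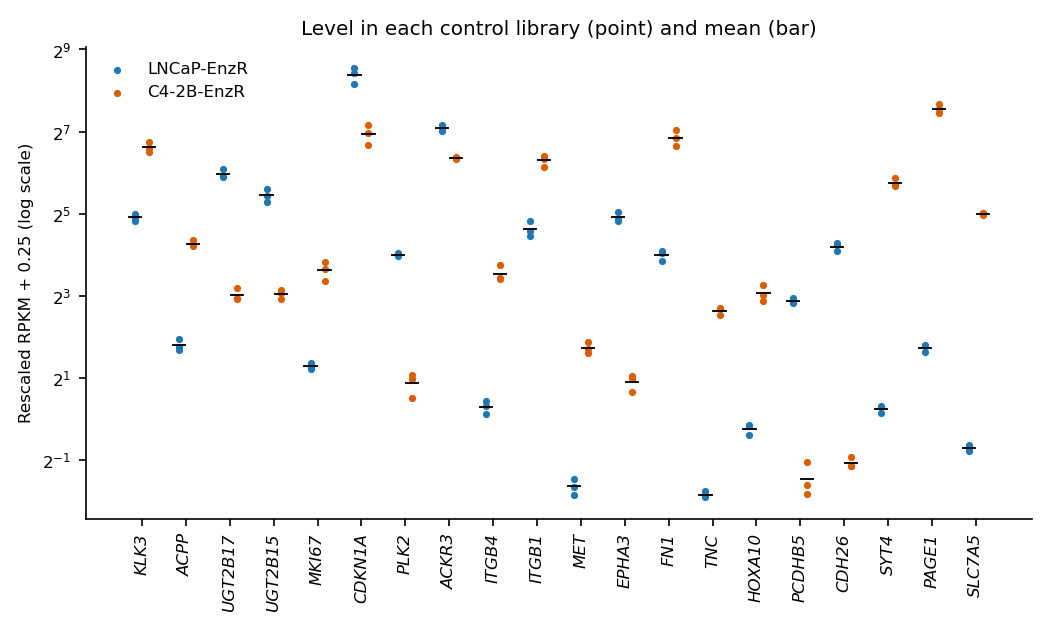
Rescaled RPKM + 0.25 (log scale) of 20 genes in each of the 3 LNCaP-EnzR (blue) and 3 C4-2B-EnzR (orange) control libraries, with the mean of each line as a black bar. The genes were chosen from those named in the text. For every gene shown the points of the lines do not overlap. They run from ACKR3 (130 to 142 against 80.0 to 82.7 RPKM) to PAGE1 (2.83 to 3.27 against 176 to 202). Over all genes tested, the libraries did not overlap for 35.2% in the higher and 35.0% in the lower direction.

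Of 20 HOX genes, which set position along the body axis, 7 were called higher and 1 (HOXC4) lower, with a median of 0.77, and 4 of those higher had passed through C4-2B-EnzR alone. The 11 HOXA genes summed to 2.72, 2.53 and 2.73 RPKM in LNCaP-EnzR and to between 22.2 and 24.8 in C4-2B-EnzR, 8.78-fold more. HOXA10 (chr7:27170605-27180261) was at 0.659, 0.635 and 0.509 RPKM against 7.04, 7.92 and 9.37, and HOXA11 and HOXA13 differed by 3.16 ± 0.14 and 3.60 ± 0.17. The HOXB sum, most of it HOXB13, was 85.9, 92.8 and 93.5 RPKM against 125, 134 and 151, and the HOXC sum differed by 1.27-fold. HOXB7 had the largest difference of a single HOX gene (3.79 ± 0.21), at up to 0.0699 RPKM against 2.70, 3.90 and 4.04, and the HOXD sum was 0.0475, 0.0621 and 0 RPKM against 0.978, 1.13 and 0.747. In the WNT pathway, 8 of 29 were called higher and 1 (LEF1) lower, with a median of 0.39. The noncanonical ligand WNT5A, which passed the limit through C4-2B-EnzR alone, was at 0.443, 0.417 and 0.321 RPKM against 3.51, 4.33 and 3.55. The receptor FZD4 was at 0.942, 1.23 and 1.55 against 4.98, 5.40 and 5.45. In the TGF-β and BMP pathway, 9 of 30 were called higher and 1 (GDF15) lower, with a median of 0.52. Those called higher included INHBA, the ligand BMP7, and LTBP1, which tethers latent TGF-β to the matrix (2.51 ± 0.13). INHBA and BMP7 passed the limit through C4-2B-EnzR alone.

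Metabolic genes differed gene by gene rather than as whole pathways. SLC7A5, the large neutral amino acid transporter, was at 0.365, 0.398 and 0.336 RPKM in LNCaP-EnzR and at 32.3, 32.1 and 31.0 in C4-2B-EnzR, a difference of 5.70 ± 0.086. It passed the limit on low levels through C4-2B-EnzR alone. The arginine transporter SLC7A1 was at 7.83, 7.12 and 7.31 RPKM against 30.3, 31.2 and 29.4. PHGDH, the entry enzyme of serine synthesis, was higher by 1.41 ± 0.10. Of 32 genes of the amino acid and endoplasmic reticulum stress response, 6 were called higher and 1 lower, with a median of 0.20. SLC16A3 was at 0.401, 0.320 and 0.539 RPKM against 42.6, 34.6 and 35.6, yet of 31 genes of glycolysis and the hypoxia response 2 were called higher and 2 lower, with a median of -0.07. In fatty acid synthesis 5 of 24 were called higher and 2 lower. The desaturases FADS1 and FADS2 were among the former, FADS1 at up to 11.2 RPKM against 40.6, 42.4 and 40.9, and the elongase ELOVL6 among the latter, at 26.0, 23.7 and 25.6 against 6.87, 7.24 and 8.29. The glutathione transferases GSTA1 and GSTA4 had differences of -4.95 and -2.29, while the median of 29 NRF2-driven genes was -0.10. GSTA1 passed the limit through LNCaP-EnzR alone.

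Other lists are given in brief. Of 29 genes of the type I interferon response, 4 were called higher (13.8%) and 1 (TRIM22) lower (3.45%), with a median of -0.11. Over all genes tested the shares were 9.21% and 7.06%. The call of TRIM22, at 14 to 73 reads a library, was lost when any library was left out (adjusted p = 0.00152 to 0.00492). In that list the tetherin gene BST2 and the ADP-ribosyltransferase gene PARP14 differed by 3.06 and 3.49, and PARP14 passed the limit through C4-2B-EnzR alone. Of 15 genes of MHC class I and antigen processing none was called higher, and PSMB10, an immunoproteasome subunit, was called lower, at 31.4, 36.2 and 35.6 RPKM against 14.2, 12.8 and 14.6. Of 23 genes of cholesterol synthesis and uptake, 2 were called higher (8.70%, near the 9.21% of all genes tested) and none lower, with a median of 0.19. Among those called higher was the sterol sensor gene INSIG1 (not past 2-fold without C4-2B-EnzR replicate 3). Chromatin writers and erasers had 7 of 30 called higher (23.3%, against 9.21% of all genes tested) and none lower, with a median of 0.39. The metallothionein genes MT1 and MT2, which bind zinc and copper and are close copies of each other, summed to 73.2, 75.8 and 67.9 RPKM against 141, 187 and 199. The members did not move together: of 5 tested, 2 were called higher and 1 lower, with differences from -3.95 to 1.61.

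Prostate and nuclear long noncoding RNAs were mostly lower. Of 18 tested, 9 were called lower and none higher (14 and 2 at an adjusted p under 0.05), with a median of -1.15. The calls were 5 without C4-2B-EnzR replicate 2 or LNCaP-EnzR replicate 1, and 6 or 8 without each of the others. PCAT1 was at 8.66, 9.14 and 9.40 RPKM against 0.630, 0.347 and 0.531, and SCHLAP1 at 4.03, 3.28 and 4.11 against 0.422, 0.236 and 0.406. Both are named for prostate cancer, and SCHLAP1 passed the limit on low levels through LNCaP-EnzR alone. MALAT1, an abundant RNA of nuclear speckles, was at 1460, 1346 and 1468 RPKM against 630, 442 and 348, and its adjusted p of 0.000166 became 0.00118 to 0.00157 without LNCaP-EnzR replicate 1 or 3 or C4-2B-EnzR replicate 2. Of 75 cytosolic ribosomal protein genes, 5 were called lower (6.67%, against 7.06% of all genes tested). Only 1 was called higher (1.33%, against 9.21%). At an adjusted p under 0.05, 49 were lower and 5 higher, but 24 and 19 under quantile normalization and 36 and 5 without rescaling, and their median of -0.39 became -0.08 and -0.29. RPL15 was at 101, 111 and 118 RPKM against 34.2, 39.2 and 43.0. In bulk RNA a lower level can come from fewer cells that carry a transcript or from less of it in each cell, and these cannot be told apart.

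Some genes were found in 1 line alone. A gene counted as such if it was listed at 0 in all 3 libraries of a line and at 1 RPKM or more in all 3 of the other. Leaving aside small RNAs, LOC symbols and genes of the Y chromosome, 16 genes were found in C4-2B-EnzR alone and 4 in LNCaP-EnzR alone. CDR1, on the X chromosome, led them at 26.8, 30.4 and 29.1 RPKM in C4-2B-EnzR. It lies inside LINC00632 (chrX:140709562-140793215) on the opposite strand, and LINC00632 was found in C4-2B-EnzR alone too, at 3.20, 2.62 and 2.53 RPKM. The strand setting of the counting is not given in the sources used here, so the reads of the pair cannot be told apart. PCDH9 (chr13:66302834-67230445) was at 8.02, 7.30 and 5.58 RPKM, the E3 ligase gene PDZRN4 at 4.81, 6.19 and 6.28, the cancer-testis gene CTAG2 at 6.80, 5.56 and 6.93 and the Frizzled gene FZD2 at 1.81, 1.14 and 1.62. NNT, the mitochondrial transhydrogenase that makes NADPH from NADH, was at 3.27, 3.87 and 4.13 RPKM. In LNCaP-EnzR alone, S100A7, the psoriasin gene, was at 14.1, 13.2 and 12.6 RPKM, DNAJC15, a mitochondrial co-chaperone gene, at 2.59, 2.84 and 3.34, and TWIST1 and OPTC made up the rest.

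The promoters of 3 of these genes are shown as examples of how far genes found in 1 line differed in CpG sites, the targets of DNA methylation. Each runs 5′ to 3′ on the strand of the gene over the 250 bases before its start in RefSeq (GRCh38.p14), with every CG in capitals.
PCDH9, chr13:67230337-67230586, minus strand: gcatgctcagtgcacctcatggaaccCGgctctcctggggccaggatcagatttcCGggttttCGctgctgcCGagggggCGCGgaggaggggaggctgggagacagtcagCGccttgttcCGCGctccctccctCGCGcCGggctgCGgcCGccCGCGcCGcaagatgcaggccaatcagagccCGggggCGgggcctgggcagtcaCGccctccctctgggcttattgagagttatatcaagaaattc
DNAJC15, chr13:43023336-43023585, plus strand: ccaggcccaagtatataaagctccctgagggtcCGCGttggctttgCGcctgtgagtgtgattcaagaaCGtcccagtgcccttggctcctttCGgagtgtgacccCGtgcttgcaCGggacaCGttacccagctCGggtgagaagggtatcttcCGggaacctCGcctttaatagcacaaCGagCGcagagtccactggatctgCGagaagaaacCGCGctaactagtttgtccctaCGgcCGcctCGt
S100A7, chr1:153460652-153460901, minus strand: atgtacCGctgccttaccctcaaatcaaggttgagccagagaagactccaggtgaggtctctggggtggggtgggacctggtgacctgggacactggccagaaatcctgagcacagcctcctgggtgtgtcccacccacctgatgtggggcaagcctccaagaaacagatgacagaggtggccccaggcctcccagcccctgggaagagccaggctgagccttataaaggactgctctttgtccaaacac
The PCDH9 window holds 20 CG, which reads the same on both strands, the DNAJC15 window 19 and the S100A7 window 1. Over the 6895 tested genes with 1 promoter entry in that table the median was 22, 59.7% held 20 or more, and 3.87% held 3 or fewer. Of the 10 genes found in 1 line that have an entry, 2 held 20 or more and 3 held 3 or fewer. These counts describe the letters of the reference, and methylation was not measured.

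Differences were not spread evenly over the chromosomes. Of the tested genes, 12164 (90.9%) could be placed by symbol in GENCODE 44. Chromosome 4 had the lowest median difference, -0.50 over 424 genes, of which 262 were lower and 64 higher at an adjusted p under 0.05, followed by chromosomes 5 (-0.39), 6 (-0.37) and 16 (-0.16). Chromosome 22 had the highest, 0.52 over 317 genes, of which 200 were higher and 25 lower, followed by chromosomes 18 (0.47) and 15 (0.43). The C4-2B-EnzR libraries gave nearly the same chromosome medians, at -0.55, -0.45 and -0.46 for chromosome 4 and 0.59, 0.49 and 0.49 for chromosome 22. The androgen-inactivating UGT2B genes lie on chromosome 4 and the PCDHB genes on chromosome 5. On chromosome 4, UGT2B11, UGT2B15 and UGT2B17 lie between 60 and 70 Mb, a stretch whose own median is not given here. Medians on either side were -0.27 at 50 to 60 Mb and -0.13 at 70 to 80 Mb, both above the -0.50 of the chromosome. On chromosome 5, the stretch from 140 to 150 Mb that holds PCDHB5 had a median of -0.85 over 58 genes, PCDHB5 included. DNA copy number was not measured in these libraries, and its part in the differences was not tested.

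**Figure D5:**
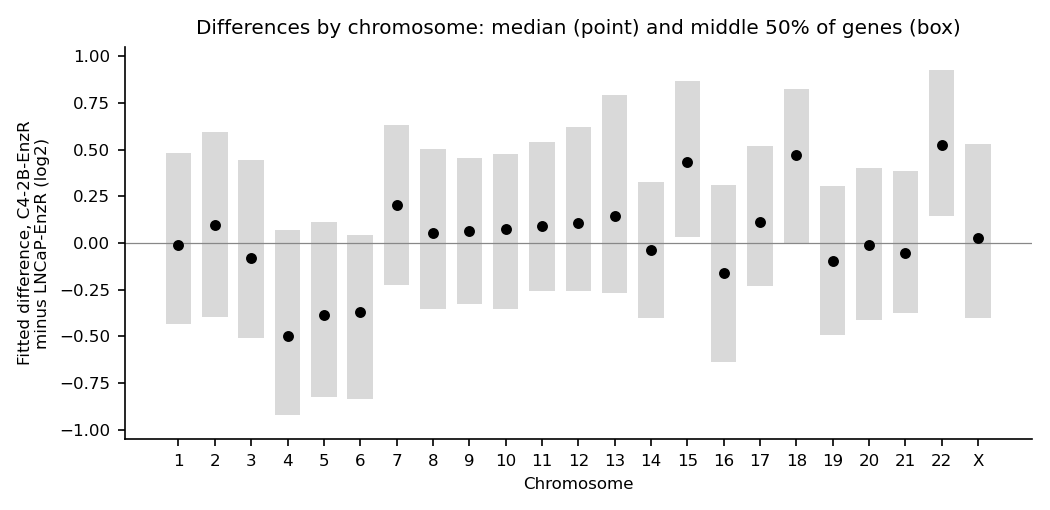
Fitted difference of the tested genes of each chromosome, C4-2B-EnzR minus LNCaP-EnzR on the log2 scale, as the median (black point) and the middle 50% of genes (grey box). Medians are lowest on chromosomes 4 (-0.50), 5 (-0.39) and 6 (-0.37) and highest on chromosomes 22 (0.52), 18 (0.47) and 15 (0.43).

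In windows of 10 Mb with at least 10 tested genes, the range was wider. The window from 20 to 30 Mb of chromosome 13 had a median of 1.20, and 36 of its 38 genes were above 0, 32 of them higher at an adjusted p under 0.05 and none lower. Its most abundant genes were GTF3A, POMP, POLR1D and SAP18, and POLR1D, a shared subunit of RNA polymerases I and III, was at 28.6, 32.4 and 32.3 RPKM against 69.4, 71.0 and 71.8. The window from 160 to 170 Mb of chromosome 3 had a median of 0.93 over 19 genes. There GOLIM4, a Golgi membrane protein gene, was at 8.35, 7.05 and 7.20 RPKM against 72.1, 76.4 and 67.5, SERPINI1 and SLITRK3 were also called higher, and the butyrylcholinesterase gene BCHE among them was lower, at 82.3, 77.3 and 78.2 against 25.5, 31.9 and 26.1. The lowest medians were -0.92 over 32 genes at 100 to 110 Mb of chromosome 4 and -0.92 over 17 genes at 80 to 90 Mb of chromosome 5. In the former, 24 genes were lower and 3 higher at an adjusted p under 0.05, and PPP3CA, the catalytic subunit of calcineurin, was at 267, 257 and 270 RPKM against 91.2, 105 and 106. In the latter, 13 were lower and 2 higher, among them CCNH, the cyclin of the CDK-activating kinase, at 30.3, 32.2 and 32.1 RPKM against 13.7, 14.4 and 14.2.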

How the data were processed

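RNA-Seq libraries were made by the authors with the NEBNext Ultra kit, aligned to hg38 with STAR per the submitters' processing notes, and deposited as 1 table of RPKM per gene symbol. The annotation and the strand setting of that counting were not given in the sources used here. Of the 12 deposited columns, the 6 of control cells were divided by median-of-ratios factors. Of 26475 lines, 32 without a value were dropped, and 4 that repeat a symbol were kept apart. Because 1 read is worth a fixed RPKM in a gene and library, reads were computed back for 20121 of 20122 genes above 0 (within 0.02 reads of a whole number). They served for depth, the agreement of replicates, an alternative test, a floor of 3 reads and the reads quoted above. Gene lengths found with them helped to leave small RNAs out of the naming rule. The main fit did not use them. Genes with at least 0.5 RPKM in 3 libraries were fitted with limma 3.58.1 (R 4.3.3) on log2(RPKM + 0.25), moderated by empirical Bayes with a trend in variance, since RPKM is not suited to a count model. The fit was also run on simulated counts with known folds. Their spread was the same in both groups, unlike that of these libraries. Tables were made in Python 3.11.15 (pandas 2.3.3, numpy 2.4.6), figures with matplotlib 3.10.9, and positions came from GENCODE 44 by symbol.

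Genes were named by rule: the 12 largest differences each way at a mean of 5 RPKM or more in the higher line with libraries that do not overlap (without small RNAs, LOC symbols, XIST and Y genes), up to 4 called members of each list, genes of the CXCR7 study and of the line check, up to 10 genes found in 1 line, and the most abundant genes of the extreme windows. Others named in the text, such as KLK2, FN1, ERBB2 and HERC3, are list members chosen after their values were seen. The comparison, the lists and the rule were chosen with earlier results of these data known, so list counts are descriptions.

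Alternatives were another pseudocount, filter, scaling, variance model and limits, a replicate block, voom and leaving out each library. Promoter sequences were read from RefSeq, where 10 of 20 genes found in 1 line had 1 entry. A few genes are not reported here by name but were kept in all fits and counts.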

Additional observations from a re-analysis of the deposited data

How the results depend on the processing

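All 4 counts of genes stayed within 1.5 times of the values given under 16 other fits. With a 4-fold limit 390 genes were higher and 201 lower. Without rescaling the counts were 1419 and 762, where the median of all genes moved from -0.00026 to 0.10, and under quantile normalization 1101 and 1054. When single libraries were left out, 940 to 1140 genes were called higher and 716 to 930 lower, and 3860 to 4470 higher and 3717 to 4375 lower at an adjusted p under 0.05. With the replicate block, 1131 were higher and 863 lower (4235 and 4184 at an adjusted p under 0.05), while same-numbered libraries correlated in their deviations at 0.0006, -0.0507 and 0.0024, and LNCaP-EnzR replicates 1, 2 and 3 correlated best with C4-2B-EnzR replicates 3, 1 and 2. A voom fit on the recovered reads called 1393 and 1128. Of 178 tested genes that the rule names, 146 kept their side of the threshold wherever they were tested, and 2 with small differences turned sign: ARRB2 (0.0323 without rescaling) and SYP (-0.3532 to 0.0025 when single libraries were left out, the latter without LNCaP-EnzR replicate 2). Medians of 7 lists near 0 turned sign in at least 1 fit, among them cancer-testis antigens and glycolysis, and without rescaling those of chromosomes 1, 3, 14, 19, 20 and 21. Fits by chromosome and with genes at 0 set to a floor of 3 reads were added after seeing the data. Depth of 6.35 to 9.79 M reads limits genes under about 1 RPKM, and 3 libraries a line limit small differences. The causes of these shifts were not tested.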
